A study of Homo sapiens with 24 samples.

Results

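Transcripts of 9 complement genes were followed in the human neuroblastoma cell line SH-SY5Y, out of 26485 genes in the count table. The genes were taken as a named list: the classical-pathway proteases C1R, C1S and C2, the central component C3, the alternative-pathway protease CFB, the soluble regulators CFI and SERPING1, and the membrane regulators CD55 and CD59. RNA sequencing gave 24 libraries in 8 groups of 3. Cells at 4 h were untreated or had received copper chloride. Cells at 24 h were untreated or had received dextran-catechin (DC), the polyamine TEPA, interferon gamma (IFN), DC with IFN, or TEPA with IFN. Both DC and TEPA bind copper, and the series asked how copper regulation acts in this tumour cell. Every group is the same single line, no dose is stated, and nothing shows that the 3 libraries of a group were separate cultures, so p-values measure the spread between these libraries, which may be technical.

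Complement is a cascade of plasma and cell-surface proteins. In the classical pathway, C1q binds its target and activates the serine proteases C1r and then C1s, which cleave C4 and C2 to build an enzyme that cleaves C3. In the alternative pathway, factor B takes the place of C2 in that enzyme. C1 inhibitor, the product of SERPING1, blocks C1r and C1s, factor I degrades C3b and C4b with the help of cofactors such as CD46, CD55 takes the C3-cleaving enzymes apart, and CD59 stops assembly of the membrane attack complex. The liver makes most of the plasma proteins, and several complement genes are known targets of interferon gamma in other cells.

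The genes lie at a few loci (GENCODE 29, GRCh38). C1S (chromosome 12, 6988259 to 7071032, plus strand) and C1R (chromosome 12, 7080199 to 7092607, minus strand) are neighbours separated by 9166 bases. C2 (chromosome 6, 31897785 to 31945672) and CFB (chromosome 6, 31945650 to 31952084) lie head to tail on the plus strand and share 23 bases. SERPING1 (57597387 to 57614853, plus strand) and CD59 (33703010 to 33736491, minus strand) are on different parts of chromosome 11. CFI is on chromosome 4 (109740694 to 109802179, minus strand), C3 on chromosome 19 (6677704 to 6730562, minus strand) and CD55 on chromosome 1 (207321376 to 207386804, plus strand). Exons of C1R overlap those of C1RL, exons of C1S those of EMG1, and exons of C2 those of CFB. How the counting shared reads among such genes is not given in the sources used here, so the split within each pair is uncertain. C2, CFB, CFI and CD59 also overlap exons of genes on the same strand that are outside the count table.

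Promoter sequences are shown for 4 of the genes because their values with IFN took different forms. CFB and CFI had 0 counts in the 24 h control and counts in every IFN library, C1R rose from a measurable level, and CD59 fell slightly. Interferon gamma signalling acts through GAS elements, searched here as TTCNNNGAA, which reads the same on both strands. Interferon regulatory factors bind ISRE elements, searched as GAAANNGAAA on either strand (TTTCNNTTTC on the other). RefSeq entries on GRCh38.p14 matched 6 of the 9 genes with 11 start sites. The 250 bases before each start are printed 5′ to 3′ on the gene's strand, with motif matches in capitals.
CFB (chr6:31945845-31946094, plus strand): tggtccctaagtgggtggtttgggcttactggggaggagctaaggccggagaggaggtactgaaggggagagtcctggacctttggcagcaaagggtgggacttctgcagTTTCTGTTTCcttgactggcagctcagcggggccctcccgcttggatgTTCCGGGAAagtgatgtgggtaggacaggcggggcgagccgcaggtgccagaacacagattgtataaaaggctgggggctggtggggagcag
C1R, second start (chr12:7091894-7092143, minus strand): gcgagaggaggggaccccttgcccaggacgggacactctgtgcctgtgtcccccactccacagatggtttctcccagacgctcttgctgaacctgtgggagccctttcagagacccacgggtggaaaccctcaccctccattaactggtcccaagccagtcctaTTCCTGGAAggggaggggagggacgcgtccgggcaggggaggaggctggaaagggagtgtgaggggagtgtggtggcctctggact
CFI (chr4:109802000-109802249, minus strand): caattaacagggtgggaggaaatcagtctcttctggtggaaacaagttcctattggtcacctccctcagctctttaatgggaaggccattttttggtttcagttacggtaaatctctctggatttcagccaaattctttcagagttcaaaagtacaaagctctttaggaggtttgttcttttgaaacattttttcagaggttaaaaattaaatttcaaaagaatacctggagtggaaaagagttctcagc
CD59, first start (chr11:33736480-33736729, minus strand): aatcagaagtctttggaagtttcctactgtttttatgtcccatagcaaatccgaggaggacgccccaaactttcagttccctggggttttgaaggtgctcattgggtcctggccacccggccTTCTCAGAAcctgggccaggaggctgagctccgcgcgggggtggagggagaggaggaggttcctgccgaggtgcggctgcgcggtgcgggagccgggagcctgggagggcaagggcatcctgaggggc
The CFB window held both motifs, an ISRE match (TTTCTGTTTC) whose first base lay 140 bases before the start and a GAS match (TTCCGGGAA) 92 bases before it, with no overlap between them. One of the entries of C1R held a GAS match (TTCCTGGAA, 86 bases before the start). CD59 held a GAS match too (TTCTCAGAA, 128 bases before the first start, and the same bases in an overlapping entry). Neither motif was in the windows of CFI, C2 or CD55. Among all 35116 promoter windows of this length, 6.57% held the GAS letters and 3.02% the ISRE letters. A gene with several entries has more chances of a match, and a match of letters is a description, not a binding site.

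Library totals ran from 24569980 to 35372442 counts. Levels are CPM, each count divided by the TMM-scaled total of its library, as mean ± SD of 3 libraries. Of the 9 genes, 7 passed the low-count filter and were tested among 14654 genes with edgeR's quasi-likelihood test, with a call at a Benjamini-Hochberg adjusted p under 0.05. C3 and CD55 did not pass. C1R, C1S, SERPING1 and CD59 also passed when the IFN groups were left out of the filter, whereas C2, CFB and CFI passed only through those groups. The last 3 therefore had to differ with IFN, and their changes are given as a description. The IFN treatment was visible in IRF1, a transcription factor induced by IFN, at 2.18 ± 0.204 CPM in the 24 h control and 347.7 ± 116 CPM with IFN. The neuroblastoma genes HAND2 (345 ± 13.5 CPM in the 24 h control) and GATA3 (153 ± 11.9 CPM) were present, while TH, which makes the catecholamine precursor, had 2 counts in that group. Of the genes often used as fibroblast markers, COL3A1 was at 288 ± 13.0 CPM in the 24 h control. PDGFRA was at 257 ± 35.6 CPM and PDGFRB at 37.3 ± 1.78 CPM in that group. COL1A1 (2.40 ± 0.209 CPM) and COL1A2 (1.64 ± 0.162 CPM) were low there.

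**Figure D1:**
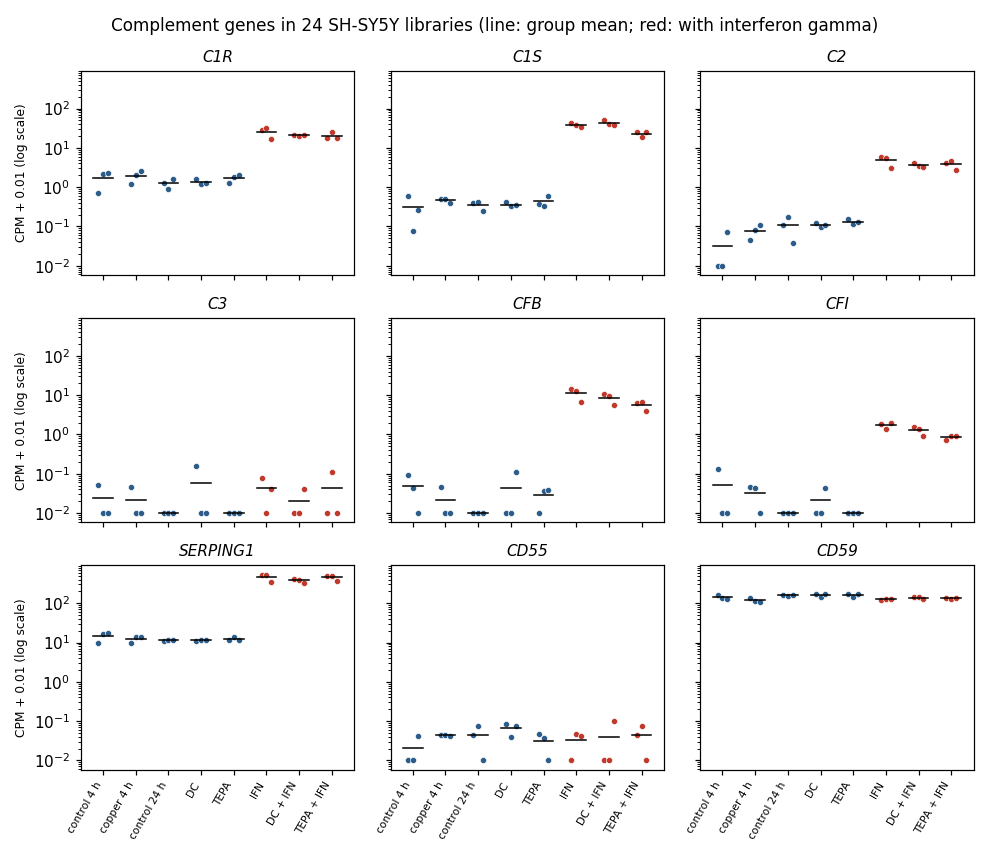
CPM of the 9 complement genes in each library (points), with group means (lines), on a log axis after adding 0.01 CPM so that zeros can be drawn. The 3 groups with IFN (red) stand above the 5 groups without it (blue) for C1R, C1S, C2, CFB, CFI and SERPING1, C3 and CD55 stay near 0 in every group, and CD59 is high throughout.

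In untreated cells at 24 h only CD59 and SERPING1 were abundant. Per kilobase of annotated exon, CD59 stood at 15.6 ± 0.732 CPM and SERPING1 at 3.15 ± 0.0903 CPM. C1R followed at 0.216 ± 0.0608 CPM per kilobase and C1S at 0.0520 ± 0.0142, and these 4 levels did not overlap between libraries. C2 (0.00523 to 0.0303 CPM per kilobase) and CD55 (0 to 0.0114) overlapped, and C3, CFB and CFI had 0 counts in all 3 control libraries, where 3 counts over the group would correspond to 0.0320 CPM. With IFN the order changed. SERPING1 came first at 129 ± 29.6 CPM per kilobase, ahead of CD59 at 12.3 ± 0.353, C1S at 6.01 ± 0.667, C1R at 4.32 ± 1.25, CFB at 2.29 ± 0.843, C2 at 0.866 ± 0.263 and CFI at 0.348 ± 0.0662. C1R and CFB did not overlap with C2 or CFI, C1S lay just above C1R without overlap (5.33 to 6.66 against 2.92 to 5.32 CPM per kilobase), and CFB lay just below C1R (1.33 to 2.91 CPM per kilobase).

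With IFN for 24 h, the 2 proteases that start the classical pathway, C1R and C1S, and their inhibitor SERPING1 rose, and CD59 fell. These are the 4 genes that passed the filter without the IFN groups, so 3 of the 4 rose and 1 fell. Across all genes 18.8% were called in this comparison, 10% higher and 8.8% lower, and the median log2 fold change of all genes was 0.00584.

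C1S, the protease that cleaves C4 and C2, had 0.374, 0.403 and 0.232 CPM in the 3 control libraries (11, 12 and 8 counts). With IFN it had 43.0, 39.1 and 34.4 CPM. No treated library came near a control library, and the log2 fold change was 6.85 (SE 0.357, edgeR adjusted p = 1.36e-11), a 115-fold rise. C1R, which activates C1S, started higher and rose less. It had 1.29, 0.906 and 1.62 CPM in the controls and 27.8, 31.3 and 17.2 CPM with IFN, a log2 fold change of 4.31 (SE 0.377, edgeR adjusted p = 5.03e-08), or 19.8-fold. So C1R was the more abundant of this neighbouring pair in every control library and C1S in every IFN library, in CPM and per kilobase. EMG1, whose exons overlap C1S, was at 45.1 ± 4.16 CPM without and 45.5 ± 2.72 CPM with IFN (log2 fold change 0.02, edgeR adjusted p = 0.884).

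SERPING1, which encodes the inhibitor of both proteases, had 11.4 ± 0.326 CPM in the controls (324, 346 and 397 counts) and 531, 518 and 340 CPM with IFN. Per kilobase it was the most abundant of the 9 genes in each IFN library, and its log2 fold change was 5.35 (SE 0.227, edgeR adjusted p = 4.66e-13), or 40.7-fold. C2, the protease component of the classical C3-cleaving enzyme, had 3, 5 and 1 counts in the controls and 162, 156 and 98 counts with IFN. That is 0.0996 ± 0.0695 against 4.80 ± 1.46 CPM, a fitted log2 fold change of 5.57, which was 6.16 without control replicate 2. No control library of C2 came near an IFN library.

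CFB, the protease of the alternative pathway, had no count in the 3 control libraries and 415, 366 and 209 counts with IFN. At 11.4 ± 4.21 CPM its level was at least 352-fold higher than a floor of 3 counts over the control group. CFI, the protease that degrades C3b and C4b, likewise went from 0 counts in each control library to 52, 37 and 61 counts, or 1.70 ± 0.323 CPM. That was at least 53.4-fold higher than the same floor.

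C3, the component on which all pathways meet, had 13 counts in all 24 libraries together, spread over 7 libraries, and no library held more than 4. CFB, which works on C3b, thus reached 990 counts over the IFN group while C3 held 2, 0 and 1 counts there. CD55 had 22 counts in all, at most 3 in a library. Neither gene could be tested at this depth, and their values with IFN were 0.0339 ± 0.0350 CPM for C3 and 0.0226 ± 0.0197 CPM for CD55.

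CD59 moved the other way and by little. The controls held 165, 152 and 166 CPM, and the IFN libraries 124.2, 127.5 and 131.5 CPM. The groups did not overlap, and the log2 fold change was -0.34 (95% interval -0.554 to -0.118, edgeR adjusted p = 0.0304), a change of -20.8%. This call depended on single libraries. Without control replicate 1 or 3 the adjusted p was 0.101 or 0.0955, and without IFN replicate 1 or 2 it was 0.107 or 0.0921, with log2 fold changes between -0.33 and -0.31.

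**Figure D2:**
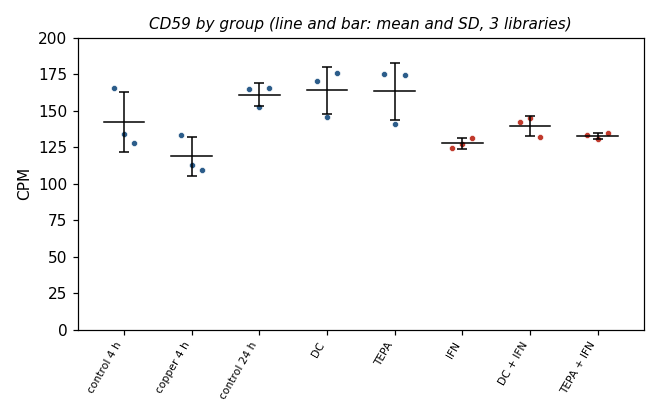
CD59 in CPM by group on a linear axis from 0, with each library as a point and the mean and SD as line and bar. The IFN libraries (124.2 to 131.5 CPM) lie below the 24 h control libraries (152 to 166 CPM), and the copper libraries overlap the 4 h control libraries.

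The IFN libraries were not alike. Replicate 3 was the lowest of its group for C1R, C1S, C2, CFB and SERPING1, but the highest for CFI and CD59. It also stood apart in GC content. The measure used, called GC difference here, sets genes with a GC fraction over 0.6 against genes under 0.4, as the difference of their median log2 levels within a library relative to the mean of all libraries. IFN replicate 3 had -0.126, against 0.596 and 0.902 in its partners, and the 24 h controls had -0.964 to -0.364. The GC fraction of the longest transcript was 0.572 for SERPING1, 0.553 for C1R, 0.549 for C2 and 0.532 for CFB, against 0.479 for C1S, 0.455 for CD59 and 0.407 for CFI. The nuclear RNAs MALAT1 and NEAT1, a list fixed to follow RNA quality, summed to 124.1 to 239.5 CPM in the 24 h controls and 180.7 to 258.6 CPM with IFN. NEAT1 was called higher (80.7 ± 18.9 against 122.8 ± 20.4 CPM, log2 fold change 0.60, edgeR adjusted p = 0.0200), and MALAT1 was not (0.06, adjusted p = 0.869). With the GC trend removed the log2 fold change of SERPING1 was 4.82, that of C1R 3.90, that of C1S 6.89 and that of CD59 -0.21, and all 4 were called. The part of this trend in the spread within the group, and that of the nuclear RNAs in the IFN changes, was not tested.

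The rise was also seen in cells that had received a chelator. Of the 4 genes that passed the filter without the IFN groups, C1R, C1S and SERPING1 rose with IFN in DC-treated cells, where 9.83% of all genes were called and 6.16% were called higher. C1R, C1S and SERPING1 also rose in TEPA-treated cells, where 14.2% of all genes were called and 7.28% were called higher. C1S went from 0.351 ± 0.0435 to 43.0 ± 7.43 CPM on DC (log2 fold change 6.93, SE 0.358) and from 0.422 ± 0.139 to 23.1 ± 3.19 CPM on TEPA (5.76, SE 0.340). SERPING1 went from 11.6 ± 0.504 to 380.2 ± 43.8 CPM on DC (5.04, SE 0.224) and from 12.4 ± 1.40 to 456 ± 68.9 CPM on TEPA (5.20, SE 0.225). C1R rose by a log2 fold change of 3.92 on DC and 3.56 on TEPA. The edgeR adjusted p of these 6 changes was at most 5.14e-07. Each was measured against its own libraries without IFN. For C2 the fitted log2 fold changes were 5.13 on DC and 4.95 on TEPA, given as a description.

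CFB held 0, 0 and 3 counts on DC and 250, 269 and 183 counts on DC with IFN, a ratio of 253 (95% counting interval 86.2 to 1230). All 3 of the DC counts were in replicate 3, without which the DC group held 0. On TEPA it held 0, 1 and 1 counts, and 183, 199 and 130 counts with IFN, a ratio of 280.0 (77.0 to 2310). CFI went from 1 count over the DC group to 37, 38 and 29 counts, a ratio of 112 (19.7 to 4480), and from 0 counts on TEPA to 21, 28 and 29 counts, at least 28.4-fold higher than the floor. The intervals cover counting error only. CD59 had a log2 fold change of -0.23 on DC (edgeR adjusted p = 0.209) and of -0.30 on TEPA (edgeR adjusted p = 0.0632), and neither passed the threshold. Of 16 alternatives, 3 called it on DC and 9 on TEPA. On TEPA it was called by DESeq2 (adjusted p = 0.0259), in edgeR with DESeq2 size factors (0.0465) and with the GC trend removed (log2 fold change -0.20, adjusted p = 0.00128). On TEPA, replicate numbers were taken to pair the libraries from correlations in the data, as the labels state no pairing. There the fit with the replicate block called CD59 (log2 fold change -0.29, edgeR adjusted p = 0.0335). The fit without TEPA replicate 2 called it too (-0.41, edgeR adjusted p = 0.0049), as did the fit without TEPA with IFN replicate 3 (-0.34, edgeR adjusted p = 0.0435).

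**Figure D3:**
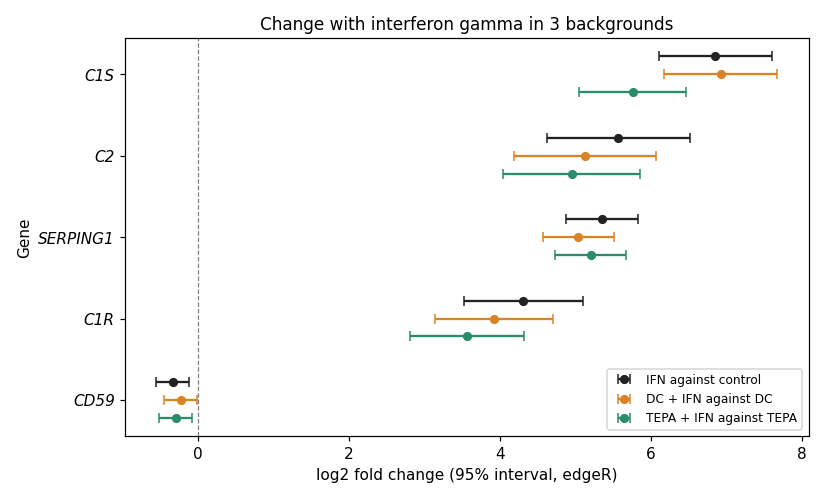
Log2 fold change with IFN (point) and its 95% interval for the 5 tested genes that had more than 3 counts in each 24 h group without IFN, in cells without chelator (black), on DC (orange) and on TEPA (green). C1S, C2, SERPING1 and C1R lie between 3.56 and 6.93 in each background, and CD59 lies just below 0. C2 passed the filter only through the IFN groups, so its points and intervals are a description.

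Neither chelator alone gave a call among the 7 tested genes, where DC called 0.0136% and TEPA 1.06% of all genes. No member had an unadjusted p under 0.05 in either comparison by edgeR, DESeq2 or limma-voom. Levels on DC and on TEPA stayed close to the 24 h control, with SERPING1 at 11.4 ± 0.326, 11.6 ± 0.504 and 12.4 ± 1.40 CPM and CD59 at 161 ± 7.58, 164 ± 16.1 and 163 ± 19.7 CPM in control, DC and TEPA. The 95% interval of the CD59 change ran from -0.192 to 0.243 on DC and from -0.199 to 0.237 on TEPA, on the log2 scale. For C1R it ran from -0.668 to 0.871 and from -0.334 to 1.18.

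In cells with IFN, adding DC gave no call among the 7 genes (0.0205% of all genes were called) and no unadjusted p under 0.05 by the 3 tools. C1S held 51.4, 40.6 and 37.1 CPM on DC with IFN, which overlapped the 34.4 to 43.0 CPM with IFN alone.

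Adding TEPA gave lower values for a subset of the genes, short of a call. No member was called by edgeR where 1.9% of all genes were. At an unadjusted edgeR p under 0.05 there were 3 of the 7, namely C1S, CFB and CFI, and all 3 were lower. The share of all genes at that unadjusted threshold was not counted, here or in the other comparisons. The 3 can therefore not be set against a background. CFB and CFI passed the filter only through the IFN groups. C1S held 19.4 to 25.04 CPM (718, 586 and 795 counts) on TEPA with IFN, below each of the IFN libraries and each of the DC with IFN libraries. Its log2 fold change was -0.75 (95% interval -1.29 to -0.215, edgeR adjusted p = 0.173). DESeq2 called C1S (adjusted p = 0.00533) and so did limma-voom (adjusted p = 0.0150), and over 16 alternatives the adjusted p ran from 2.22e-05 to 0.480, with 6 under 0.05. CFB held 6.38, 6.58 and 4.05 CPM against 14.5, 13.2 and 6.64 CPM with IFN alone (log2 fold change -1.01, edgeR adjusted p = 0.315, range over the alternatives 3.45e-05 to 0.720). CFI held 0.733, 0.926 and 0.903 CPM against 1.82, 1.33 and 1.94 CPM (-0.99, edgeR adjusted p = 0.393, range 0.0119 to 0.798). Neither gene's libraries overlapped those with IFN alone, but for CFB the sets nearly touched. Its highest library on TEPA with IFN had 6.58 CPM, and IFN replicate 3 had 6.64 CPM. MALAT1 and NEAT1 were lower as well, summed to 124.0 to 142.1 CPM on TEPA with IFN against 180.7 to 258.6 CPM with IFN alone. NEAT1 was called (76.2 ± 8.28 against 122.8 ± 20.4 CPM, log2 fold change -0.69, edgeR adjusted p = 0.0463) and MALAT1 was not (-0.67, unadjusted p = 0.0244, adjusted p = 0.301). Their part in the lower values of C1S, CFB and CFI was not tested.

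SERPING1, C1R, C2 and CD59 were nearer to the IFN group. SERPING1 held 482, 508 and 378 CPM on TEPA with IFN, within the range of the IFN libraries (log2 fold change -0.02, 95% interval -0.412 to 0.367). The intervals for C1R (-0.996 to 0.339) and C2 (-0.981 to 0.365) were wider. IRF1 was 352 ± 66.3 CPM on TEPA with IFN against 348 ± 116 CPM with IFN alone (log2 fold change 0.02, edgeR adjusted p = 0.9999).

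Whether the IFN effect itself differed on a chelator was tested as an interaction. EdgeR called none of the 14654 tested genes for DC (0%) and none for TEPA (0%). DESeq2 called 2 genes for DC and none for TEPA, and for TEPA edgeR called 2 genes with the replicate block, 6 with the GC trend removed and 14 with both, none of them members. For DC no member had an unadjusted p under 0.05 by the 3 tools. For TEPA only C1S did, by edgeR and by DESeq2 but not by limma-voom, with a difference of log2 fold changes of -1.09 (SE 0.474, edgeR unadjusted p = 0.0325, adjusted p = 1.0). No interaction is given for CFB and CFI, because their groups without IFN held 3 counts or fewer.

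**Figure D4:**
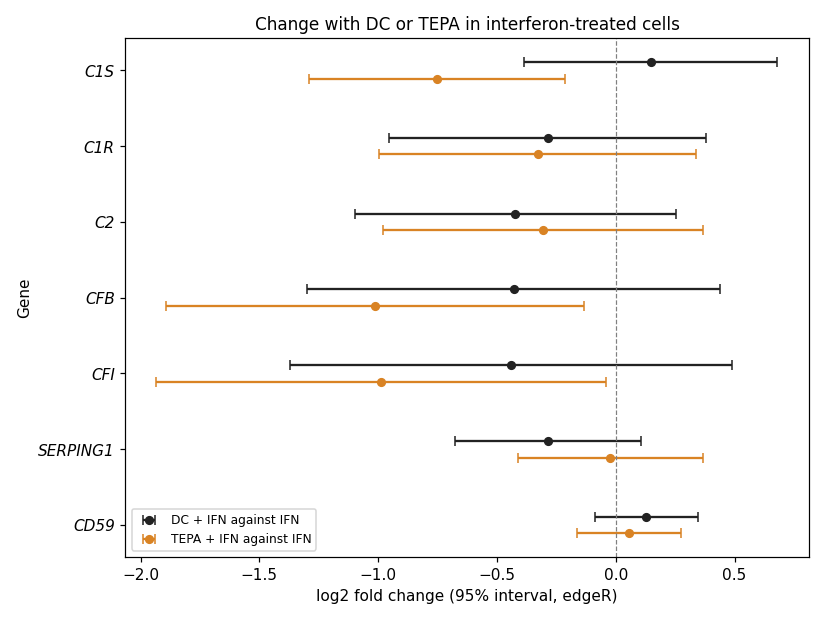
Log2 fold change with DC (black) or TEPA (orange) in cells with IFN, against IFN alone, with 95% intervals, for the 7 tested genes. With TEPA the intervals of C1S, CFB and CFI lie below 0 before adjustment, while those of C1R, C2, SERPING1 and CD59 include it. Both comparisons share the IFN libraries.

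Copper chloride for 4 h gave no call among the 7 genes by edgeR, DESeq2 or limma-voom, where edgeR called 5.86% of all genes. With each tool 1 member had an unadjusted p under 0.05. CD59 held 134, 113 and 110 CPM with copper and 166, 134 and 128 CPM in the 4 h control, 119 ± 13.1 against 142.5 ± 20.5 CPM, and the groups overlapped. Its log2 fold change was -0.26 (95% interval -0.482 to -0.0460, edgeR adjusted p = 0.181). Replicate numbers were taken to pair these libraries from correlations in the data, as the labels state no pairing. On that assumption, the fit to these groups alone with the replicate block called CD59 (-0.24, edgeR adjusted p = 0.0104). The block within the fit of all samples called no member. SERPING1 held 9.64, 13.6 and 13.6 CPM with copper and 9.65, 16.7 and 17.0 CPM without. C1S held 14, 14 and 12 counts with copper and 14, 2 and 8 counts without (log2 fold change 0.67, edgeR adjusted p = 0.501), and it passed the threshold without the 4 h control replicate 1 (1.47, adjusted p = 0.0401). That library, with a GC difference of -1.33 against 0.656 and 1.38 in its partners, was also the lowest of its group for SERPING1 and C1R and the highest for CD59 and C1S. Copper replicate 1 had -0.647 against 0.798 and 1.34.

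Between the untreated cells of the 2 times no member was called, where 9.69% of all genes were. One member, C2, had an unadjusted p under 0.05 by edgeR and by limma-voom, and none by DESeq2. C2 had 9 counts over the 24 h control and 2 over the 4 h control, a ratio of 4.12 (95% counting interval 0.853 to 39.2). Without the 4 h control replicate 1, 3 members were called, namely CD59 higher at 24 h (log2 fold change 0.30, edgeR adjusted p = 0.0213), and SERPING1 (-0.57, adjusted p = 0.0174) and C1R (-0.81, adjusted p = 0.03998) lower. The count over all genes went from 1420 to 7511 with that library left out.

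The other complement genes, 53 in 4 lists, showed which partners of the 9 were present. Of these 18 were tested and 20 had no count in any library. Of the 18, 3 passed the filter only through the IFN groups, among them C4B. They are left out of the counts of genes that rose or fell with IFN. With IFN 4 of the remaining 15 rose and 4 fell, where 10% of all genes were called higher and 8.8% lower, and the median log2 fold change of the 15 was 0.0488. In the initiation list of 15 genes, 6 were so tested, 2 rose and 2 fell. C4A, the substrate of C1s, rose from 0.550 ± 0.0815 to 86.6 ± 24.3 CPM (log2 fold change 7.28, SE 0.428, edgeR adjusted p = 9.19e-11). C4B, a near-identical gene whose reads the counting may share with C4A, held 0, 5 and 0 counts in the controls and 236, 224 and 30 with IFN, and the sum of both went from 0.606 ± 0.118 to 92.3 ± 28.5 CPM. C1RL, a C1r-like protease gene that shares exon positions with C1R, rose from 3.44 ± 0.681 to 7.55 ± 1.59 CPM (1.13, edgeR adjusted p = 0.00118). MBL2, a lectin that starts the lectin pathway, fell from 1.35 ± 0.320 to 0.614 ± 0.0810 CPM (-1.13, edgeR adjusted p = 0.00522). The other gene that fell, COLEC12, is named after its values were seen and went from 0.978 ± 0.0682 to 0.195 ± 0.0495 CPM. MASP2, a lectin-pathway protease, held 1.16 ± 0.408 CPM without and 1.10 ± 0.187 CPM with IFN (log2 fold change -0.08, edgeR adjusted p = 0.834). On TEPA its log2 fold change with IFN was -0.92 (edgeR adjusted p = 0.0460), and the difference between those 2 changes, tested as an interaction, was -0.83 (edgeR unadjusted p = 0.0617, adjusted p = 1.0). C1QA, a chain of the C1q molecule that activates C1r, had no count in the 24 h control or IFN group.

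In the list of 9 further alternative and terminal genes, 3 were tested, 1 rose and 2 fell. C7, a terminal component, had 1043, 723 and 1105 CPM in the 24 h control and 445, 532 and 387 CPM with IFN (log2 fold change -1.07, SE 0.224, edgeR adjusted p = 0.00194). C5, cleaved at the start of the terminal steps, fell from 86.6 ± 6.12 to 58.1 ± 6.04 CPM (-0.57, edgeR adjusted p = 0.0178). C6, which joins C5b, rose from 2.59 ± 0.446 to 10.3 ± 2.12 CPM (1.99, edgeR adjusted p = 0.000217). Of 19 further regulators, 5 were so tested, 1 rose and none fell. A2M, a broad protease inhibitor, rose from 1.49 ± 0.296 to 4.54 ± 1.22 CPM (log2 fold change 1.60, edgeR adjusted p = 0.000271). CD46, a membrane cofactor of factor I, was at 126 ± 13.2 and 130.0 ± 7.24 CPM (0.05, edgeR adjusted p = 0.832). Among 10 receptors and binding proteins only C1QBP was tested, at 304 ± 12.1 and 328 ± 18.1 CPM (0.11, edgeR adjusted p = 0.330).

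On DC, 4 of the 15 rose and 2 fell with IFN by edgeR, where 9.83% of all genes were called, and DESeq2 and limma-voom gave the same counts. On TEPA, 4 rose and 4 fell by edgeR, where 14.2% of all genes were called, against 5 and 3 by DESeq2 and 4 and 2 by limma-voom. The counts from here on are over all 18. Without IFN, neither chelator gave a call by edgeR, DESeq2 or limma-voom, where edgeR called 0.0136% of all genes for DC and 1.06% for TEPA. DC gave no unadjusted p under 0.05 with any of them, while TEPA gave 4, 5 and 3. Copper gave no call and no unadjusted p under 0.05 with any of the 3 tools, where edgeR called 5.86% of all genes. TEPA with IFN against IFN gave no call, where edgeR called 1.9% of all genes, and 5 unadjusted p under 0.05 with each tool. Over the 15 genes there were 4 by DESeq2 and 4 by limma-voom. By edgeR, over all 18, 3 of the 5 were lower and 2 higher. Among the lower were C6 (5.80 ± 0.534 against 10.3 ± 2.12 CPM, log2 fold change -0.83, edgeR adjusted p = 0.248) and C7 (322 ± 43.1 against 455 ± 72.9 CPM, -0.50, adjusted p = 0.371). The higher were C5 (log2 fold change 0.37, edgeR adjusted p = 0.364) and C1QBP (0.19, edgeR adjusted p = 0.380).

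**Figure D5:**
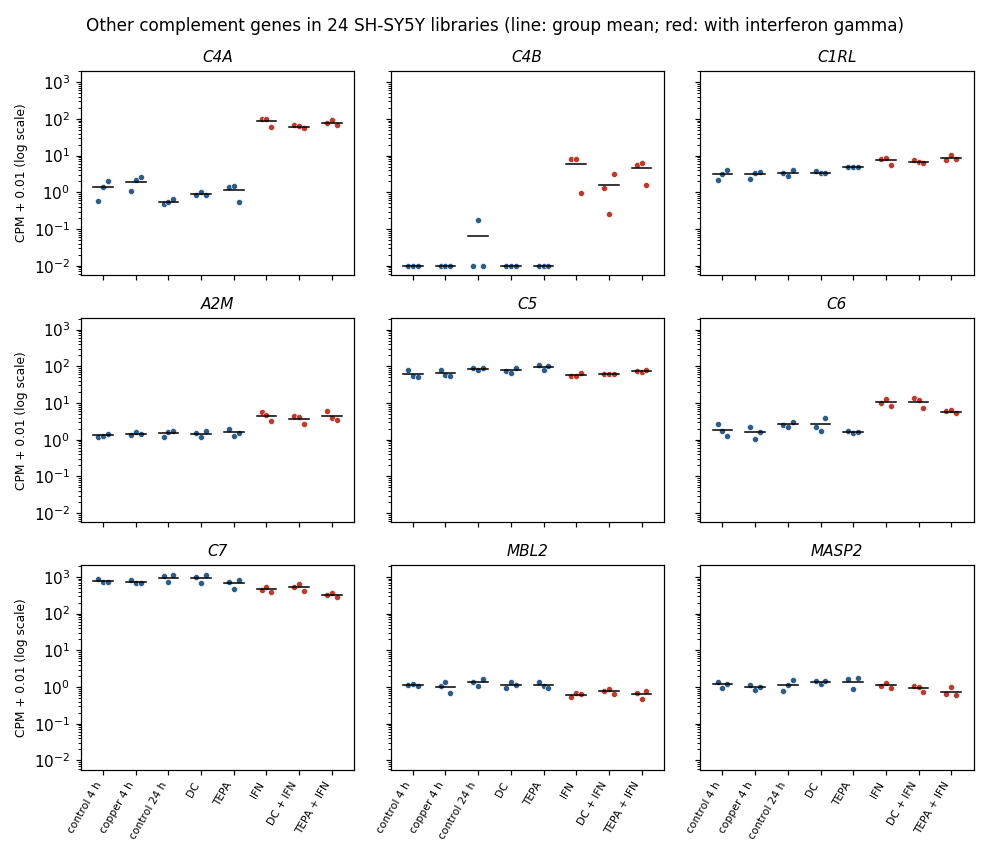
CPM of 9 other complement genes in each library (points) with group means (lines), on a log axis after adding 0.01 CPM. With IFN (red) C4A stands far above the libraries without it (blue), C6, A2M and C1RL stand higher, and C7 and C5 stand lower than the 24 h control. C4B is higher but spread widely. Its DC with IFN replicate 2 (0.247 CPM) lies near the 24 h control replicate 2 (0.168 CPM).

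Cell types known for complement synthesis were looked for through their markers. Summed over 10 hepatocyte genes, the level was 0.374 to 0.436 CPM in the 24 h controls and 0.665 to 1.22 CPM with IFN, with SERPINA1 at 0 counts in both groups, APOA1 at 0 and 1 and ALB at 1 and 4. Summed over 9 leukocyte genes it was 0.577 to 1.91 CPM in the controls and 5.72 to 7.94 CPM with IFN, of which CD68 alone made 0.669 ± 0.477 and 6.76 ± 1.17 CPM, while the pan-leukocyte gene PTPRC was 0.292 ± 0.154 and 0.126 ± 0.0269 CPM. Summed over 10 fibroblast and endothelium genes the level was far higher, 703 to 859 CPM in the controls and 795 to 949 CPM with IFN. Among them COL3A1 was 288 ± 13.0 and 315 ± 31.8 CPM, and PDGFRA 257 ± 35.6 and 251.5 ± 25.6 CPM. Which cells expressed these genes was not tested. SERPING1 in the IFN group was 463 ± 107 CPM. In bulk RNA, a change in the share of cells that express a gene and a change in RNA per cell cannot be told apart.

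The genes whose log2 CPM followed each member most closely over the 24 libraries were found by Pearson's r, given as a description. Because 9 libraries with IFN and 15 without form 2 levels for 6 of the members, a high r for those mostly says that a gene shares that split. SERPING1 was most like IRF1 (r = 0.9992) and PSME1 (0.9977), an activator of the proteasome. C1S was much like the pseudogene GBP1P1 (0.9904), and C1R was most like IFITM3 (0.993) and CSF1 (0.9903). C2 was most like TRIM21 (0.9907) and IRF9 (0.9896), CFB like IDO1 (0.9933) and CARD16 (0.9926), and CFI like PIK3AP1 (0.9879) and GBP4 (0.9862). CD59, which does not split in that way, was most like ZNF555 (0.9736) and SLC35B4 (0.9734).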

How the data were processed

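Stranded mRNA libraries of 24 samples were sequenced, per the labels' protocols. The authors deposited unnormalized counts, whole numbers listed by gene symbol. The submitters' processing notes name STAR 2.5a, RSEM 1.2.31 and hg38; annotation, strand setting and treatment of shared reads are not given in the sources used here. The table equals the deposited list of each of the 24 libraries. With edgeR 4.0.16 (R 4.3.3), filterByExpr (minimum count 10) kept 14654 genes; TMM scaling and 1 mean per group followed, with 16 residual degrees of freedom. Symbols matched GENCODE 29 for 23825 genes (90.0%), and 93.4% of tested genes had a GC content. CPM use TMM-scaled totals; a group at 0 was set against 3 counts over the group, and ratios with 1 to 3 counts carry exact conditional intervals. Alternatives were DESeq2 1.42.0, limma-voom 3.58.1, other scaling, no filter, fewer samples, GC correction and a replicate block. The script was tested on simulated data.

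Replicate numbers were taken to pair the libraries of 2 groups where each of the 3 correlations between same-numbered libraries (deviations from the group mean of log2 CPM) was over 0.1, a hint from the data since the labels state no pairing. That held for TEPA with IFN against TEPA (0.29, 0.56, 0.23), DC against control (0.15, 0.55, 0.23), TEPA against control (0.36, 0.57, 0.23) and copper against control (0.87, 0.35, 0.82).

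The 9 genes, the lists and the tests were chosen with earlier results of these data known. Named genes were the 9 members; up to 10 other complement genes called with IFN or copper at a mean of at least 1 CPM, by size of the IFN change; an IFN check gene, IRF1; and the 2 genes most like each member. A few genes that this rule selects are not reported here. Of the RNA quality list only MALAT1 and NEAT1 were in the table. The marker lists without a sum given above were summed over their genes in the table, in the 24 h control and IFN libraries. The neuroblastoma list gave 1772 to 1889 and 1979 to 2213 CPM. The epithelium list gave 0.470 to 0.543 and 0.254 to 1.01 CPM, and the Schwann cell list 61.1 to 68.5 and 74.4 to 80.0 CPM.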

Additional observations from a re-analysis of the deposited data

How the results depend on the processing

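Of 1100 refits of member fold changes, 1063 kept the direction or stayed uncalled as before, 4 lost a call (all CD59 with IFN), 33 gained one and none reversed a called value; 43 of those that stayed uncalled changed sign. These refits hold C2, CFB and CFI too, which passed the filter only through the IFN groups, so their calls with IFN say nothing on stability. C1R, C1S and SERPING1 were called in all 16 alternatives of each of the 3 IFN comparisons. The genes called over all genes ran from 1599 to 8071 there for IFN against control. They ran from 533 to 3530 on DC and from 1149 to 8272 on TEPA. The next numbers in brackets are the genes called over all genes. For TEPA with IFN against IFN the count of 0 members (279) became 1 with DESeq2 (583) and 1 with limma-voom (332). It was 2 with the GC trend removed (1858) and 2 with that and the replicate block (2090). In the fit to these groups alone with the replicate block it was 3 (2740), although these numbers did not pair (correlations 0.07, 0.54 and 0.56). It was 1 (950) without the 3 libraries that stand apart in GC content (4 h control 1, copper 1 and TEPA 2, chosen after seeing the data). For copper the count of 0 (858) became 1 with the GC trend removed (2978) and 1 with that and the replicate block (3231). It was 1 in the fit to these groups alone with the replicate block (2506) and 1 without those 3 libraries (1170). Leaving out single libraries it was 0 to 1 (543 to 981). For 24 h against 4 h the count of 0 (1420) was 0 to 3 leaving out single libraries (471 to 7511) and 3 without those 3 (8909). Beyond these and the CD59 values given above, the replicate block changed no call among the members. CD59 with IFN on DC passed with the GC trend removed, both without the block (edgeR adjusted p = 0.00512) and with it (0.0049). With the prior counts of limma-voom, the fitted log2 fold change of CFB with IFN was 9.39 in place of 11.4 and that of CFI 6.73 in place of 8.68. Raw library totals moved none of 72 group means by more than 1 SD, and the longest transcript as length changed the order only of C3 and CD55 with IFN. The cause of these changes was not tested. Depth limits C3 and CD55, and all groups of CFB and CFI without IFN.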

Other observations

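Values with IFN are given here for genes whose annotated positions overlap the 9. LPCAT3, on the strand opposite to C1S, was at 24.5 ± 0.966 CPM in the 24 h control and 24.0 ± 1.51 CPM with IFN (edgeR log2 fold change -0.03, adjusted p = 0.842). ZBTB12, opposite to C2, was at 5.11 ± 0.261 and 7.14 ± 1.73 CPM (0.48, edgeR adjusted p = 0.208), and the antisense transcript C2-AS1 had 1 count over each group. GPR108, which overlaps the span of C3 on the same strand, had a log2 fold change of 1.10 (edgeR adjusted p = 0.0880).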
